A study of Mus musculus with 10 samples.

Results

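The smooth muscle contractile genes followed here are Acta2, Actg2, Myh11, Cnn1, Tagln, Smtn, Lmod1, Synpo2 and Myocd, which serve the muscularis mucosae and the vessel wall in the oesophagus. They were taken by gene name from a table of counts for 22740 protein-coding genes, in which all 9 were found, each on 1 row. RNA had been sequenced from 5 mice labelled Grhl3 knockout (Grhl3 KO) and 5 labelled wild type. All 10 mice are labelled C57BL/6 and all received 4-NQO, a carcinogen that induces squamous tumours of the mouth and oesophagus. The Grhl3 KO samples are labelled as oesophageal tumour and the wild-type samples as oesophageal tissue, whereas the design text speaks of tumours from both, so genotype and tissue label cannot be told apart. The series title calls the knockouts conditional and the knockout columns carry "L2Cre"; the sources used here give neither the promoter that drives Cre, nor the meaning of that name, nor the ages. Libraries are named by group and sample number.

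Smooth muscle contracts when myosin filaments pull on actin filaments, after calcium and calmodulin have activated the kinase that phosphorylates the myosin light chain. Its actin and myosin isoforms and many of the proteins that bind them are switched on together by serum response factor (Srf) with its coactivator myocardin (Myocd), through DNA elements called CArG boxes. The mouse oesophagus is unusual in that its outer muscle coat is largely skeletal, so smooth muscle is mostly that of the muscularis mucosae and of vessels. Acta2 is also made by activated fibroblasts and pericytes.

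The actins of smooth, skeletal and cardiac muscle have nearly the same protein, so it matters whether reads can tell Acta2 and Actg2 apart from each other and from the skeletal actin Acta1 and the cardiac actin Actc1. The 60 coding bases in which Acta2 and Actg2 differ most are shown for all 4 genes, from GENCODE M21 transcripts of GRCm38, with capitals where a base differs from Acta2.
Acta2: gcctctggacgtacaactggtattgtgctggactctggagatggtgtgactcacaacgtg
Actg2: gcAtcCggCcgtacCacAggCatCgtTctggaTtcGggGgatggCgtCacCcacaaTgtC
Acta1: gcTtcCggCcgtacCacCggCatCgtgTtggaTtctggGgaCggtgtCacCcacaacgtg
Actc1: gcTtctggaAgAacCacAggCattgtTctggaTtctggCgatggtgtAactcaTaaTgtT
In this window, coding bases 436 to 495 of Acta2, Actg2 differed at 16 positions, Acta1 at 13 and Actc1 at 13. Over the whole coding sequence identity to Acta2 was 84.4% for Actg2, 85.4% for Acta1 and 82.5% for Actc1, and the longest run of identical bases was 29, 29 and 23 in that order. The 75 coding bases most like Acta2 held 70 identical bases in Actg2, 69 in Acta1 and 69 in Actc1. For the longest transcript of each member, no blastn alignment to another gene had 75 bases or more at 95% identity over its whole length. Closer stretches within longer alignments of lower identity were not searched for beyond these actins. How reads matching several genes were counted is not stated.

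RefSeq promoters of GRCm38.p6 were found for 5 of the 9 members, namely Acta2, Cnn1, Smtn, Lmod1 and Synpo2. A strict CArG box (CC, then 6 letters each A or T, then GG, a pattern that is the same on both strands) was absent from the 250 bases before the RefSeq start of all 5, and was present in 1.47% of 32841 promoters. When 1 of the 6 inner letters could be G or C, Acta2 held 2 matches and Cnn1, Smtn, Lmod1 and Synpo2 held 0. At least 1 such match was present in 8.59% of promoters, and at least 2 in 0.67%. Both Acta2 matches are shown, with the match in capitals, on the minus strand.
chr19:34255438-34255467: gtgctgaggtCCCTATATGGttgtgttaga
chr19:34255388-34255417: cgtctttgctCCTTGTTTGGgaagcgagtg
The matches begin 84 and 34 bases before the RefSeq start of Acta2, at 34255373 in this table. GENCODE M21 places the start of the gene further out, at 34255590, so both sites lie inside its gene span, and an exon of 1 of its 2 Acta2 transcripts overlaps each. A match is a description of the letters and says nothing of binding in these samples.

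Total counts ran from 15.3 to 32.9 M. Grhl3 itself was not lower in the knockouts: it had 135, 234, 191, 235 and 317 CPM (counts per M after TMM scaling) in Grhl3 KO libraries 1026, 1027, 1035, 1036 and 1043, against 363, 114, 164, 283 and 109 CPM in wild-type libraries 1028, 1048, 1528, 1555 and 1561. Which part of Grhl3 was deleted, and in which cells, is not stated in what was used here, so this count does not check the labels. Summed over 4 Y-linked genes, the Grhl3 KO libraries held 162 to 203 CPM, against 154 and 177 CPM in wild-type 1028 and 1048, 72.3 CPM in wild-type 1561, and 0.0527 and 0.0539 CPM in wild-type 1528 and 1555. The last 3 wild-type libraries also carry sample numbers far above the other 7. Whether the numbers mark a batch is not stated. Sexes are not labelled either. Y-linked counts were almost absent in wild-type 1528 and 1555 and in no knockout, so sex may be uneven between the groups.

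No smooth muscle contractile gene passed the test between Grhl3 KO and wild type, and for each tested member but Smtn the larger of the group SDs exceeded the difference of the group means. Of the 9 members 8 passed the filter on low counts, and 0 of these 8 had an adjusted p under 0.05 by edgeR's quasi-likelihood test with Benjamini-Hochberg adjustment over 13731 genes, of which 0.0801% were called, 0.0291% higher and 0.051% lower. DESeq2 and limma voom also called 0 of them. Smtn alone had an unadjusted p under 0.05 by edgeR, a level that 7.16% of all genes tested reached. The 2 groups overlapped for each of the 8, and did not overlap for 1.35% of all genes, 0.787% higher and 0.568% lower. At such small shares, 0 of 8 called and 0 of 8 without overlap do not set the members apart from other genes. Fitted log2 fold changes (Grhl3 KO over wild type) lay below 0 for 6 members and above 0 for 2, with a median of -0.50, while 50.3% of all genes were fitted below 0. In bulk tissue fewer cells of a type and less RNA per cell cannot be told apart.

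**Figure D1:**
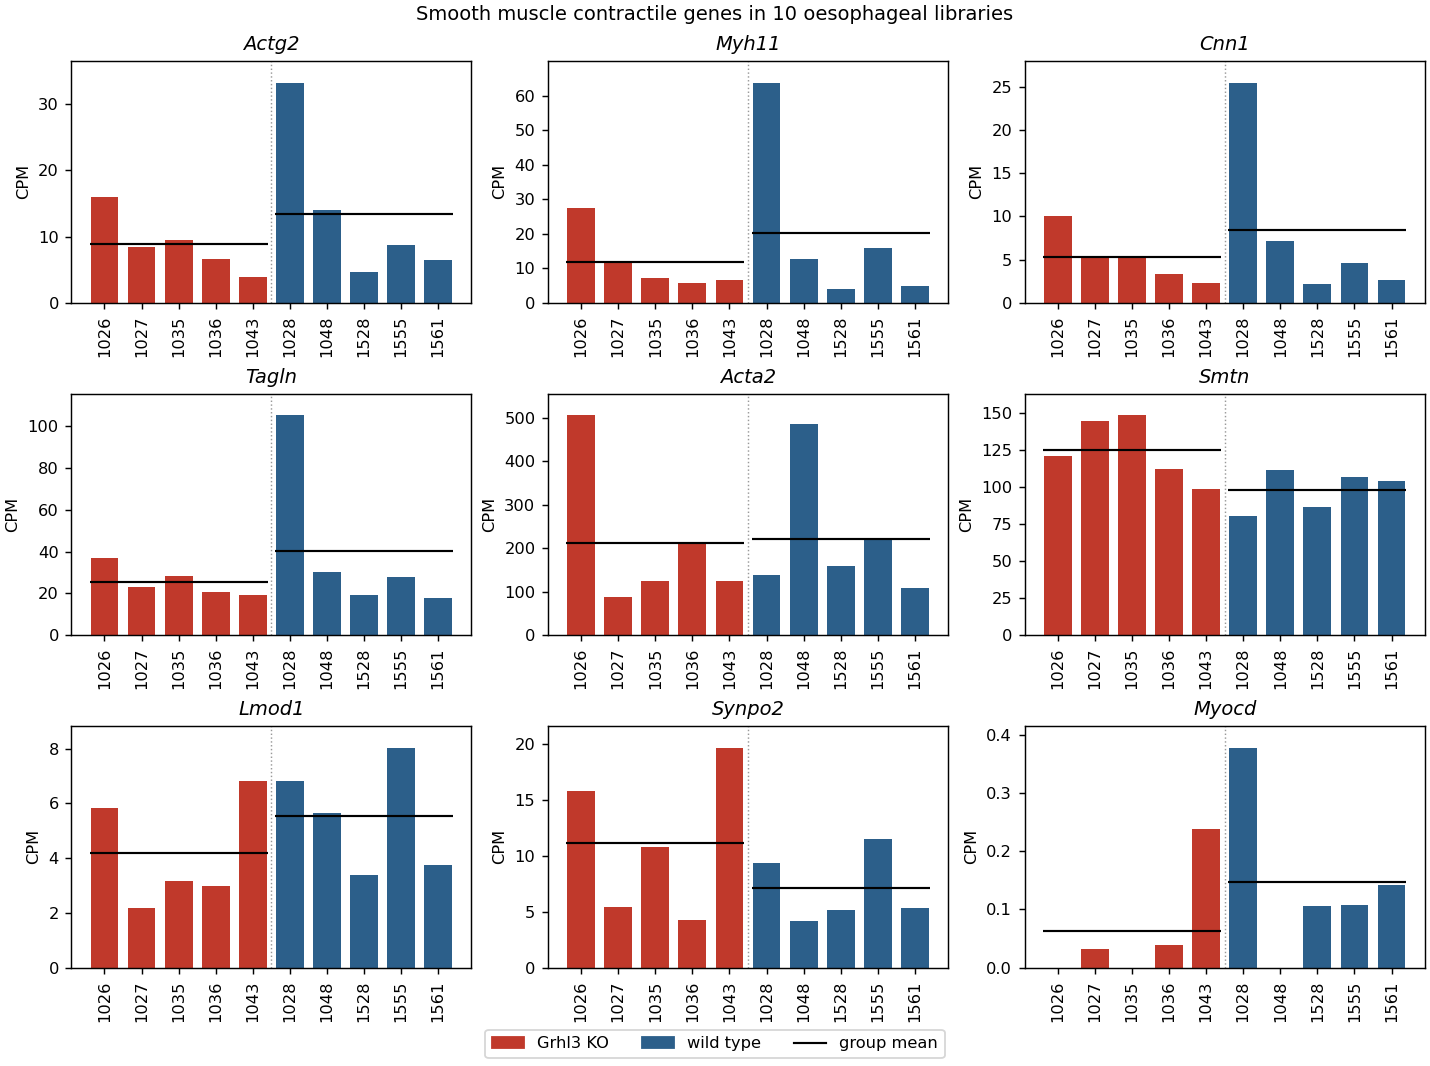
CPM of each of the 9 members in every library, 1 panel per gene, with red bars for the 5 Grhl3 KO libraries on the left, blue bars for the 5 wild-type libraries on the right and a black line at each group mean. Wild-type 1028 carries the highest bar for Actg2, Myh11, Cnn1 and Tagln, and Grhl3 KO 1026 the next highest.

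Acta2 (ENSMUSG00000035783, chromosome 19, 34241090 to 34255590 in GRCm38) encodes the smooth muscle alpha-actin of vessels. It had 505, 86.9, 125, 212 and 125 CPM in Grhl3 KO 1026, 1027, 1035, 1036 and 1043, against 138, 485, 159, 219 and 107 CPM in wild-type 1028, 1048, 1528, 1555 and 1561. Grhl3 KO 1026 and wild-type 1048 were the highest of their groups, and the groups overlapped throughout. Acta2 had a log2 fold change of -0.07 (SE 0.53, edgeR adjusted p = 0.989), with 95% limits of -1.24 and 1.09.

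Actg2 (ENSMUSG00000059430, chromosome 6, 83512905 to 83536265) encodes the gamma-actin of visceral smooth muscle. Its values were 16.0, 8.48, 9.51, 6.54 and 3.88 CPM in the Grhl3 KO libraries in the same order, against 33.2, 14.01, 4.69, 8.73 and 6.49 CPM in the wild-type libraries. Wild-type 1028 was the highest and Grhl3 KO 1026 the second, with the groups overlapping. For Actg2 the log2 fold change was -0.60 (SE 0.53, edgeR adjusted p = 0.885).

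Myh11 (ENSMUSG00000018830, chromosome 16, 14194535 to 14291372) encodes the smooth muscle myosin heavy chain, the motor that pulls on these actins. It had 27.4, 11.5, 7.20, 5.83 and 6.51 CPM in Grhl3 KO libraries, against 63.6, 12.6, 4.11, 15.7 and 4.85 CPM in wild-type libraries. The highest library held 15.5 times the lowest, the widest range of the 8 members tested. Myh11 had a log2 fold change of -0.80 (SE 0.74, edgeR adjusted p = 0.888), with 95% limits of -2.43 and 0.83.

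Lmod1 (ENSMUSG00000048096, chromosome 1, 135324807 to 135368065) encodes leiomodin, which nucleates actin filaments in smooth muscle. It had 5.85, 2.18, 3.15, 2.99 and 6.81 CPM in Grhl3 KO libraries, against 6.84, 5.63, 3.37, 8.03 and 3.76 CPM in wild-type libraries. Here wild-type 1555 was highest and the spread was smaller than for Myh11, with a ratio of 3.69 between highest and lowest. Lmod1 had a log2 fold change of -0.41 (SE 0.36, edgeR adjusted p = 0.881).

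Cnn1 (ENSMUSG00000001349, chromosome 9, 22099216 to 22109630) encodes calponin, an actin-binding protein that restrains myosin. It had 10.1, 5.28, 5.35, 3.35 and 2.33 CPM in Grhl3 KO libraries, against 25.4, 7.16, 2.16, 4.58 and 2.59 CPM in wild-type libraries. The order of the libraries was close to that of Actg2. Its log2 fold change was -0.67 (SE 0.66, edgeR adjusted p = 0.897).

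Tagln (ENSMUSG00000032085, chromosome 9, 45929619 to 45936058) encodes transgelin, which bundles actin. It had 36.9, 23.0, 28.3, 20.8 and 19.2 CPM in Grhl3 KO libraries, against 105, 30.3, 19.1, 27.9 and 18.0 CPM in wild-type libraries. Without wild-type 1028 the wild-type libraries stay within the range of 18.0 to 30.3 CPM and overlap those of the knockouts. Its log2 fold change was -0.65 (SE 0.46, edgeR adjusted p = 0.827). Exons of Tagln overlap 1349 bases of genes on the opposite strand, and the table is described by its submitters as reverse-stranded counts.

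Smtn (ENSMUSG00000020439, chromosome 11, 3517523 to 3540612) encodes smoothelin, a filament protein of contractile smooth muscle. It had 121, 145, 148, 112 and 98.6 CPM in Grhl3 KO libraries, against 80.4, 112, 86.3, 107 and 104 CPM in wild-type libraries. Its highest library held 1.85 times the lowest, the narrowest range of the 8. Its log2 fold change was 0.35 (SE 0.14), with 95% limits of 0.05 and 0.65 and an edgeR adjusted p of 0.622. As with Tagln, some of its exon bases (753) overlap genes on the opposite strand, here Gm11946 and Gm11947. It averaged 125 ± 21.3 CPM over the 5 Grhl3 KO libraries, against 97.9 ± 13.7 CPM over the 5 wild-type libraries (± SD).

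Synpo2 (ENSMUSG00000050315, chromosome 3, 123076519 to 123236149) encodes synaptopodin-2, a protein of the actin attachment sites of muscle, of smooth and striated muscle alike. It had 15.8, 5.41, 10.8, 4.25 and 19.6 CPM in Grhl3 KO libraries, against 9.34, 4.16, 5.17, 11.5 and 5.37 CPM in wild-type libraries. Grhl3 KO 1043 was highest and Grhl3 KO 1026 next, while Grhl3 KO 1036 was the second lowest of all 10. Its log2 fold change was 0.64 (SE 0.44, edgeR adjusted p = 0.824).

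Myocd (ENSMUSG00000020542, chromosome 11, 65176561 to 65269989), the coactivator of the whole programme, was close to the limit of detection. It had 0, 1, 0, 1 and 4 counts in the Grhl3 KO libraries, against 8, 0, 2, 2 and 3 counts in the wild-type libraries, and so did not pass the filter. A count of 0 allows up to 0.189 CPM in Grhl3 KO 1026 and 0.0867 CPM in Grhl3 KO 1035, against 0.158 CPM in wild-type 1048. These counts do not show a difference between the groups.

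**Figure D2:**
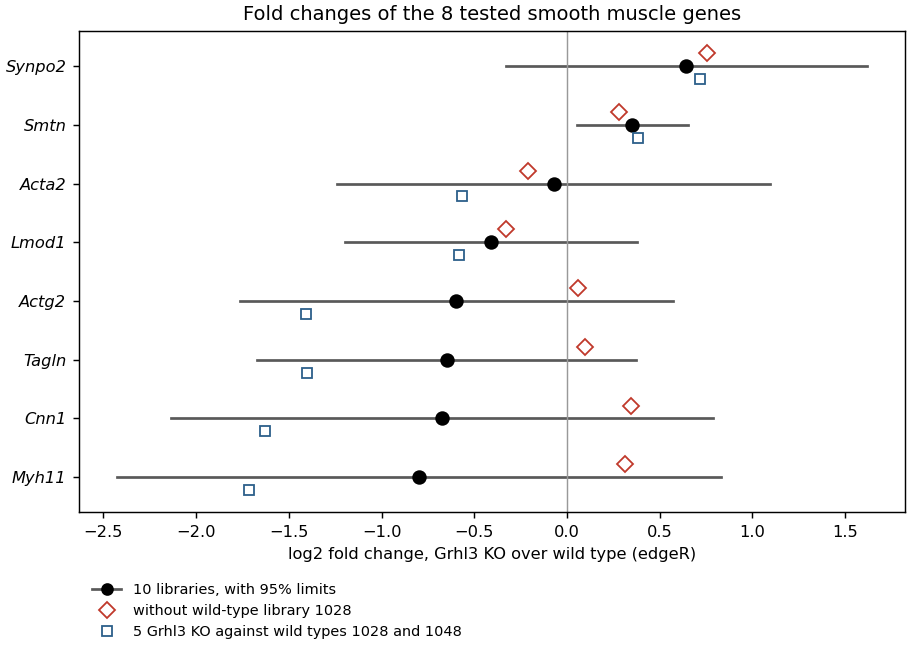
Log2 fold change of the 8 tested members, Grhl3 KO over wild type. Black dots with 95% limits use all 10 libraries, red diamonds leave out wild-type 1028, and blue squares set the 5 Grhl3 KO libraries against wild-type 1028 and 1048 only; for Actg2, Myh11, Cnn1 and Tagln the red diamonds lie above 0 and the blue squares at -1.40 or lower.

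The direction for Actg2, Myh11, Cnn1 and Tagln rested on 1 library. Without wild-type 1028 their log2 fold changes were 0.06, 0.31, 0.34 and 0.10 in that order, and the wild-type means of the remaining 4 libraries were 8.48 ± 4.04, 9.33 ± 5.75, 4.12 ± 2.28 and 23.8 ± 6.15 CPM (SD, n = 4). With only wild-type 1028 and 1048 against the 5 Grhl3 KO libraries, all from the lower sample numbers, the same 4 genes stood at -1.41, -1.71, -1.63 and -1.40 (edgeR unadjusted p = 0.0106 to 0.0431, adjusted p = 0.684 to 0.749). Wild-type 1028 is 1 of the 2 wild-type libraries in that fit, so these values rest on it too. For Myh11 it held 63.6 CPM, against 12.6 CPM in wild-type 1048. The higher numbers hold 3 wild-type libraries and no knockout, so no value can be had within them. Without the wild-type libraries 1528 and 1555, where Y-linked counts were almost absent, the 4 values were -1.01, -1.22, -1.16 and -0.998. None of the 4 was called by edgeR in that fit (adjusted p = 0.920 to 0.929).

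Wild-type 1028 was also the highest library for 14.6% of all 13731 genes tested. It was highest for 4 of the 8 members, for 8 of 10 endothelial markers, for 5 of 10 markers of squamous epithelium and for 4 of 6 leukocyte markers. Of the 26 other genes of the contractile apparatus 4 were highest in wild-type 1028, Mylk and Myl9 among them. So were 5 of 13 genes of excitation and signalling (38.5%) and 2 of 13 regulators. The same held for 1 of 10 pericyte markers, 2 of 12 fibroblast markers, 1 of 15 skeletal muscle markers and 1 of 6 markers of interstitial cells, glia and neurons. The values of wild-type 1028 for Actg2, Myh11, Cnn1 and Tagln were 3.91, 8.84, 5.55 and 4.57 times the median of the other 9 libraries. Pearson's r with the mean log2 CPM of the epithelial markers was 0.643, 0.807, 0.713 and 0.753 for these 4 genes in that order. Without wild-type 1028 it was 0.363 to 0.662. With the leukocyte markers r was 0.572 to 0.660. None of these pairs had an adjusted permutation p under 0.05 (0.105 to 0.325, over 48 pairs of a member and a list). How much these other tissues contribute to the smooth muscle values was not tested.

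Levels per length of transcript (CPM per kb of exon, GENCODE M21) put Acta2 first at a median of 67.7 and Smtn second at 25.0, followed by Tagln at 12.8, Actg2 at 5.53, Cnn1 at 1.80, Myh11 at 1.23, Lmod1 at 1.19, Synpo2 at 0.563 and Myocd at 0.0113. Among neighbours in this order, Acta2 over Smtn and Synpo2 over Myocd did not overlap in range over the 10 libraries, and the other 6 pairs of neighbours did. Cnn1 stood above Myh11 in 8 libraries and Myh11 above Lmod1 in 7, so these neighbours do not differ beyond their spread.

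Actg2, Myh11, Cnn1 and Tagln varied together over the 10 libraries. Their 6 pairs had Pearson correlations of log2 CPM between 0.909 and 0.982 (100000 permutations, p = 2e-05 to 0.00043, 0.000467 to 0.00201 adjusted over 28 pairs). Spearman correlations were between 0.867 and 0.976 (permutation p = 5e-05 to 0.00217, adjusted 0.00121 to 0.0101). With the 2 libraries farthest from the median left out Pearson's r was 0.792 to 0.973, without wild-type 1028 it was 0.807 to 0.964, and with group means removed it was 0.91 to 0.989. The other 22 pairs had an r of at most 0.592 and none had an adjusted permutation p under 0.05. Among them, Smtn had r of -0.313 to -0.0696 with Actg2, Myh11, Cnn1 and Tagln. Without wild-type 1028, where Smtn was lowest, these correlations of Smtn were 0.406 to 0.638. Genes counted in the same library share its depth and tissue composition, so these values describe how the libraries vary.

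**Figure D3:**
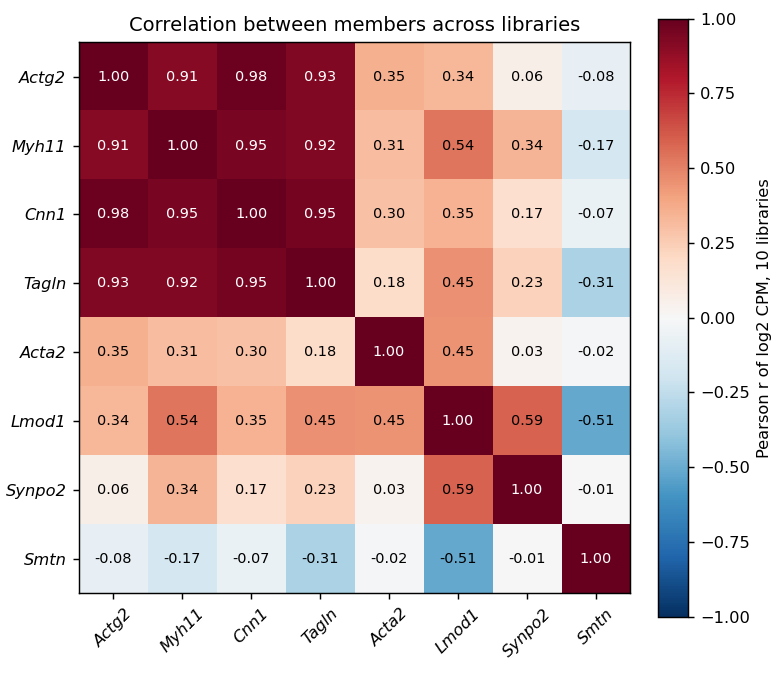
Pearson correlation of log2 CPM over the 10 libraries between the 8 tested members, shown as an 8 by 8 grid. Actg2, Myh11, Cnn1 and Tagln form 1 block with values of 0.909 to 0.982.

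Acta2 did not follow that block. Its correlations with the 4 genes ran from 0.182 to 0.354 (permutation p = 0.316 to 0.605, adjusted 0.635 to 0.825), with rho from 0.297 to 0.455 (adjusted permutation p = 0.519 to 0.662), and were 0.63 to 0.723 without wild-type 1028. With Grhl3 KO 1026 and wild-type 1048 left out they were -0.0592 to 0.0479, so what relation there was rested on few libraries. The ratio of Actg2 to Acta2 averaged -4.40 ± 0.81 on the log2 scale in Grhl3 KO libraries, against -4.17 ± 1.26 in wild-type libraries (± SD over 5; by exact permutation, two-sided, p = 0.818). The ratio of Myh11 to Acta2 averaged -4.12 ± 0.80 in Grhl3 KO libraries, against -3.97 ± 1.70 in wild-type libraries (exact permutation p = 0.857, which is also its value adjusted over 4 ratios and that of the ratio before it). The ratio of Myh11 to skeletal Acta1 was -6.36 ± 1.35 in Grhl3 KO libraries, against -5.73 ± 1.55 in wild-type libraries (exact permutation p = 0.524, adjusted 0.857). The fourth ratio, Myocd to Srf, is not read, since Myocd had 0 to 8 counts and the prior count of 2 sets much of it. The smallest p that 5 against 5 libraries can give is 0.00794.

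Synpo2 varied with the markers of skeletal muscle, with r = 0.951 between its log2 CPM and the mean log2 CPM of the markers (permutation p = 3e-05, adjusted 0.00144 over 48 pairs of a member and a list) and rho = 0.891 (adjusted permutation p = 0.0576, which misses the threshold). The correlation was 0.938 without the 2 libraries farthest from the median, Grhl3 KO 1036 and 1043. The summed skeletal markers held 838 to 6190 CPM in Grhl3 KO libraries, against 1408 to 3133 CPM in wild-type libraries, and 13 of 15 were highest in Grhl3 KO 1043. With these markers as a term in the fit the log2 fold change of Synpo2 was 0.19, against 0.64 without it. The same term put Lmod1 at -0.66, against -0.41 without it (edgeR unadjusted p = 0.0312, adjusted p = 0.663). Lmod1 had r = 0.618 with the same markers (adjusted permutation p = 0.251).

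**Figure D4:**
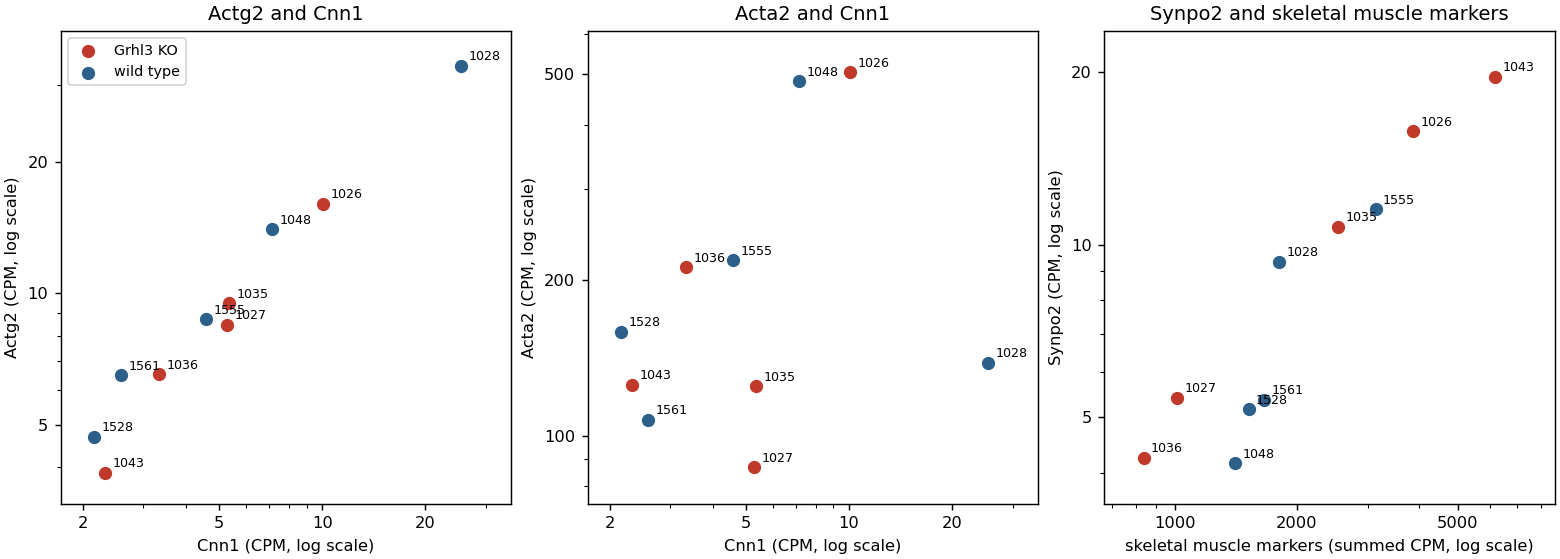
Scatter of libraries on log axes of CPM, with Grhl3 KO in red and wild type in blue: Actg2 against Cnn1, Acta2 against Cnn1, and Synpo2 against the summed skeletal muscle markers. Actg2 with Cnn1 and Synpo2 with the skeletal markers lie along a line, with r of 0.982, and of 0.951 for the mean log2 CPM of the markers, and Acta2 with Cnn1 do not.

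By likeness of pattern over 10 libraries (Pearson r of log2 CPM), the genes nearest Actg2 were Cnn1 and Tagln, and those nearest Tagln were Myl9, the regulatory light chain of smooth muscle myosin (r = 0.968), and Cnn1. Cnn1 was followed closely by Mylk, the kinase that phosphorylates that light chain (r = 0.960). Mylk had 12.1, 8.23, 8.005, 5.32 and 6.87 CPM in Grhl3 KO libraries, against 26.5, 11.5, 4.85, 6.68 and 4.89 CPM in wild-type libraries. Wild-type 1028 and Grhl3 KO 1026 were again the highest. Nearest Synpo2 were Tmem38a, a channel of the sarcoplasmic reticulum, and Musk, a receptor kinase of the neuromuscular junction (r = 0.975 each). Nearest Myh11 was Nebl, a nebulin-like actin-binding protein (r = 0.965). Nearest Acta2 was Zfp346 (r = 0.942), nearest Smtn was Prkaa1 (r = 0.977) and nearest Lmod1 was Lmo2 (r = 0.947). The mean of the z-scored members was followed most closely by Ddx50 (r = 0.939), Creb3l1 (r = 0.920) and Ptgis (r = 0.913). These neighbours were picked as the highest r among the 13731 genes tested. With only 10 libraries the highest of so many can be large by chance, and none was tested as a neighbour.

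Of 26 other genes of the contractile, filament and adhesion apparatus, all tested, 20 were fitted above 0 and 6 below, with a median log2 fold change of 0.11, and 0 were called by edgeR. Filip1l, a filamin-associated protein, had the smallest p at a log2 fold change of 0.40 (SE 0.22, edgeR adjusted p = 0.760). Ppp1r12a, the targeting subunit of myosin phosphatase, had 0.14 and Ppp1r14a, its inhibitor, -0.65. The abundant filamin Flna stood at -0.11 and the actin-severing Dstn at -0.11. DESeq2 and limma voom also called 0 of the 26, and 0 had an unadjusted p under 0.05 by edgeR. Of the 26, 8 (30.8%) were highest in Grhl3 KO 1043, against 10.3% of all genes tested. That library was also highest for 13 of 15 skeletal muscle markers. Des was among the 8, at 477 CPM in Grhl3 KO 1043. The share of skeletal muscle in the values of this list was not tested.

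Channels, receptors and signalling of contraction gave 13 tested genes, 8 fitted above 0 and 5 below, with 0 called. Rock2, a kinase that inhibits myosin phosphatase, had 0.22, Gucy1b3, a subunit of the nitric oxide receptor, 0.74, and Kcnmb1, the smooth muscle subunit of the large potassium channel, -0.67. The sarcoplasmic reticulum pump Atp2a2 stood at 0.08 and Rhoa at -0.09. Rock2 alone had an unadjusted p under 0.05, and DESeq2 and limma voom called 0 of this list.

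Among 13 tested regulators of smooth muscle, which include transcription factors and the ligands and receptor of their signalling, 6 were fitted above 0 and 7 below, with 0 called. Srf, the partner of Myocd, had 130, 121, 79.8, 103 and 106 CPM in Grhl3 KO libraries, against 74.8, 98.8, 81.6, 84.2 and 99.3 CPM in wild-type libraries, and the fitted log2 value was 0.30 (SE 0.13, adjusted p of 0.697 by edgeR). It alone of these regulators had an unadjusted p under 0.05 by edgeR, and DESeq2 and limma voom called 0. Srf was therefore far above Myocd in every library. The transcription factor Gata6 had -0.91 and the secreted growth factor Tgfb2 -0.67. The transcription factor Klf4 and the Notch ligand Jag1, which the epithelium also makes, had 0.17 and -0.12.

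Pericyte and mural cell markers gave 10 tested genes, 7 above 0 and 3 below, with 0 called. Cspg4, a proteoglycan of pericytes, had the smallest p of these, with 21.1 ± 5.86 CPM in Grhl3 KO libraries, against 37.5 ± 14.8 CPM in wild-type libraries (± SD over 5), a log2 difference of -0.83 (adjusted p of 0.545 by edgeR). Higd1b had 1.29 and Heyl 0.68, at means of 1.38 and 1.91 CPM in Grhl3 KO libraries, against 0.553 and 1.19 CPM in wild-type libraries. With Cspg4, fitted the other way, these were the 3 markers with an unadjusted p under 0.05 by edgeR. Of all genes tested 7.16% reached that level. Without wild-type 1028 Higd1b had 1.997 and within the lower sample numbers 0.61 (adjusted p of 0.280 and 0.921 by edgeR). The abundant Ndufa4l2 and Notch3 stood at -0.22 and 0.12. Of the lists of other cells, markers of skeletal muscle were fitted above 0 for 15 of 15, of fibroblasts for 8 of 12, of endothelium for 7 of 10, of squamous epithelium for 1 of 10, of leukocytes for 3 of 6, of interstitial cells, glia and neurons for 0 of 6, and the 1 tested marker of fat and mesothelium lay below 0. None of those genes was called by edgeR, DESeq2 or limma voom. Markers of 1 list can vary together, so these counts are not independent. The summed skeletal markers ran from 1408 to 3133 CPM in wild-type libraries. Grhl3 KO 1027 and 1036 held less (1014 and 838 CPM), 1026 and 1043 held more (3874 and 6190 CPM), and 1035 lay within at 2527 CPM.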

How the data were processed

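Per the labels' protocols, RNA was isolated with a column kit and libraries were made with a stranded poly(A) kit. The authors deposited unnormalized whole-number counts per gene; the submitters' processing notes name featureCounts, without a version, and GRCm38. The sources used here do not name the aligner. No sample-level column was left unused (0) and 0 rows lacked a gene name; 4661 genes were at 0 in every library, and 21842 identifiers were found in GENCODE M21. Members and gene lists were chosen with earlier results of these data known.

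Genes were filtered with filterByExpr (minimum count 10, minimum total 15), scaled by TMM and tested with edgeR 4.0.16 in R 4.3.3 (robust quasi-likelihood, 5 against 5 libraries, no covariates), with adjustment over 13731 genes and a threshold of 0.05. SEs follow from the F statistic. Log2 CPM carries a prior count of 2. Single ratios were compared by exact two-sided permutation; floors are 3 counts and cover counting error only. P-values of group comparisons set a difference against the spread between these libraries. Permutation p-values of correlations concern association over the 10 libraries. Genes named beside the members were, per list, the 3 of smallest p and the 2 most abundant. Similarity was measured with blastn 2.17.0. Alternatives were other scalings and filters, DESeq2 1.42.0, limma 3.58.1 voom, leaving out libraries, the number series, and skeletal markers as a term. Correlations among members were planned as a description; their permutation p-values and alternatives, and the correlations with marker lists, were chosen after seeing the data. The tests were tried on simulated data.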

Additional observations from a re-analysis of the deposited data

Results flagged for a closer look

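In groups of 5 libraries, a value was marked where its gap to the nearest other library, divided by the range of the group, exceeded 0.71. Of 26 groups examined 5 were marked. This limit marks about 1 in 20 groups where values are normally distributed, which was not tested for these CPM and ratios. The groups also share the same libraries, so 5 of 26 cannot be set against that rate. Wild-type 1028 stood apart for Myh11 at 63.6 CPM, for Cnn1 at 25.4 CPM and for Tagln at 105 CPM. Grhl3 KO 1026 stood apart for Myh11 at 27.4 CPM. Grhl3 KO 1043 stood apart for Myocd at 0.239 CPM, which is 4 counts.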

How the results depend on the processing

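No smooth muscle contractile gene was called under any of 23 alternatives. Over all genes edgeR called 11, against 130 by DESeq2, 1 by limma voom, 7 without a filter, and 1 each within the lower number series, with the series as a term and without wild-type 1528 and 1555; leaving out single libraries gave 1 to 16, and the cause was not tested. With 1 library left out, log2 fold changes ran from -0.69 to 0.44 for Acta2, -0.91 to 0.058 for Actg2, -1.38 to 0.31 for Myh11, -1.03 to 0.34 for Cnn1, -0.83 to 0.10 for Tagln, -0.29 to 0.018 for Flna, -0.33 to 0.00495 for Jag1 and -0.068 to 0.30 for Notch3, and the median of the 8 members from -0.75 to 0.19. Of the 28 genes given with a fold change, 20 moved by over 1.5 times in at least 1 of these fits, and 12 of those kept their sign: -0.66 to -0.25 for Lmod1, 0.34 to 0.87 for Synpo2, -0.83 to -0.29 for Kcnmb1, -1.12 to -0.54 for Gata6, -1.09 to -0.38 for Tgfb2, 1.08 to 1.997 for Higd1b, 0.30 to 0.62 for Filip1l, 0.022 to 0.38 for Klf4, -0.44 to -0.062 for Ndufa4l2, 0.039 to 0.12 for Atp2a2, -0.17 to -0.029 for Dstn and -0.13 to -0.05 for Rhoa. Wild-type 1028 alone did so for Kcnmb1, Gata6 and Higd1b, wild-type 1048 for Filip1l and Grhl3 KO 1043 for Synpo2. Flna was 0.15 within the lower series and 0.15 with the series as a term, and Ndufa4l2 was 0.069 without wild-type 1528 and 1555. With 1 library left out the log2 ratio differences ran from -0.49 to 0.30 for Actg2 to Acta2, -0.48 to 0.55 for Myh11 to Acta2, -0.96 to -0.01 for Myh11 to Acta1 and -1.51 to -0.79 for Myocd to Srf, the last resting on 0 to 8 counts of Myocd and at -1.58 with a prior count of 0.5, against -1.12 with 2. Within the lower series these differences were -0.82 for Actg2 to Acta2, -0.94 for Myh11 to Acta2 and -2.06 for Myh11 to Acta1, and without wild-type 1528 and 1555 they were -0.67, -0.52 and -1.15 in that order. The 6 correlations among Actg2, Myh11, Cnn1 and Tagln and that of Synpo2 with skeletal muscle markers kept their sign, with unadjusted permutation p from 1e-05 to 0.00912, without wild-type 1028, with group means removed and with total-count scaling; the rank correlation of Synpo2 with those markers had an adjusted permutation p of 0.0576. No paired analysis was possible because the groups share no replicate numbers. Depth limits Myocd, whose 0 to 8 counts per library cannot show a difference.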
